A study of Homo sapiens with 12 samples.

Results

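HCT116, a human colon cancer line of epithelial type, was transfected with an siRNA directed at the NFYA transcripts that carry the longest 3′ untranslated region. The second of the siRNAs of this kind, labelled siLong2, is described here against siControl (a non-targeting siRNA) and mock (transfection reagent with no siRNA). Each group had 2 libraries, so 6 of the 12 libraries of the series enter the comparison, and all 12 share the estimate of the spread. The other groups were siLong1, a different siRNA to the long form, and siTotal1 and siTotal2, a pair of siRNAs to all NFYA transcripts. The siRNAs were given at 62.5 nM to wells seeded with 25000 cells, and polyadenylated RNA was taken 72 h later. The 2 libraries of each group are biological duplicates according to the design text. One siRNA sequence was used in each siRNA group, so an effect of the NFYA target and an effect of the siRNA sequence itself cannot be told apart within siLong2.

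NFYA encodes the subunit of the trimeric transcription factor NF-Y that reads the CCAAT box, a short promoter sequence. The products of NFYB and NFYC form the histone-like dimer to which it binds. CCAAT boxes lie close upstream of many genes used in G2 and mitosis, and NF-Y is known as an activator of such genes in dividing cells. An siRNA acts through its antisense strand, which guides the Argonaute protein to a fully matching transcript. It can also lower other transcripts that match only bases 2 to 8 of the antisense strand, called the seed, usually in their 3′ untranslated region.

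The labels list the siLong sense strands as a first and a second sequence, and they do not state in words which of them is siLong2. Both are shown because words that pair with their seeds are counted in transcripts further on. In the antisense strands below, derived as the reverse complement of the listed sense strands and written without overhangs, capitals mark the seed.
siLong, first listed, sense: agugaucauuguaggguaa
siLong, first listed, antisense: uUACCCUAcaaugaucacu
siLong, second listed, sense: ggucauuccuuuagcauca
siLong, second listed, antisense: uGAUGCUAaaggaaugacc
Neither siLong sense strand was found in a GENCODE 29 transcript, and no position is given for them.

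Each library held between 35604197 and 49746637 reads assigned to genes, with 35756378 and 35604197 in the libraries labelled siLong2. Of 63677 listed genes, 17730 passed the expression filter. Mitochondrial genes took 6.58% and 6.6% of the reads in siLong2, 5.45% and 5.77% in siLong1, 3.90% and 4.98% in siControl, and 4.58% and 3.83% in mock. Of 9 colon epithelium markers, led by KRT8, the summed level was 4960 to 5150 CPM (counts scaled to library size) in siLong2, 5430 to 5440 CPM in siLong1, 3290 to 3360 CPM in siControl and 3420 to 3610 CPM in mock. The keratin genes KRT8, KRT18 and KRT19 lay above every control library in siLong2. EPCAM, an epithelial adhesion gene, did not, at 257 and 271 CPM in siLong2, 279 and 278 CPM in siControl, and 243 and 261 CPM in mock, nor did the E-cadherin gene CDH1, at 79.8 and 82.5 CPM in siLong2, 94.8 and 99.7 CPM in siControl, and 76.7 and 84.0 CPM in mock. The intestinal transcription factor gene CDX1, one of the 9, had 0 reads in siLong1, siControl and mock, and was at 0.0 and 0.0283 CPM in siLong2. VIL1 and LGALS4, also among the 9, stayed at or under 0.17 CPM in siLong2, siControl and mock. The summed level of 8 fibroblast markers, most of it COL1A1, was 36.4 to 38.5 CPM in siLong2, 33.9 to 35.3 CPM in siControl and 26.4 to 45.3 CPM in mock. COL1A2, COL3A1 and DCN were at 3.13, 1.92 and 2.1 CPM in mock replicate 1, and each at 0.0 CPM in mock replicate 2. In siLong2 they were at 0.0, 0.0835 and 0.0 CPM in replicate 1, and 0.51, 0.453 and 1.1 CPM in replicate 2. They stayed at or under 0.0788 CPM in siControl. Blood markers (8 genes) stayed at or under 0.891 CPM in siLong2, 0.566 CPM in siControl and 0.575 CPM in mock, and neural markers (6 genes) at or under 1.62, 1.54 and 2.16 CPM in those groups. CPM values here are scaled by TMM normalization, and fewer expressing cells cannot be told apart from less RNA per cell in any of them.

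The targeted gene came first. NFYA (ENSG00000001167, chromosome 6, 41072945 to 41099976 on GRCh38, plus strand) was at 69.7 and 70.1 CPM in the libraries labelled siLong2, 47.7 and 46.5 CPM in siLong1, 57.4 and 57.5 CPM in siControl, and 55.2 and 59.1 CPM in mock. Both siLong2 libraries lay above every control library and every siLong1 library. NFYA was higher by 0.28 on the log2 scale against siControl (SE 0.05, edgeR quasi-likelihood adjusted p = 5.9e-06), by 0.29 against mock (SE 0.05, adjusted p = 3.3e-06) and by 0.57 against siLong1 (adjusted p = 3.3e-12). The rise against the controls was not called when the test asked for a change beyond 1.2-fold. Total NFYA reads were therefore higher, not lower, than in the controls, and every direction given below for siLong2 is drawn from libraries so labelled. Gene counts do not separate the long transcript from the shorter ones, so the amount of the long form was not measured. Total reads therefore cannot check whether the long form was lowered.

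**Figure D1:**
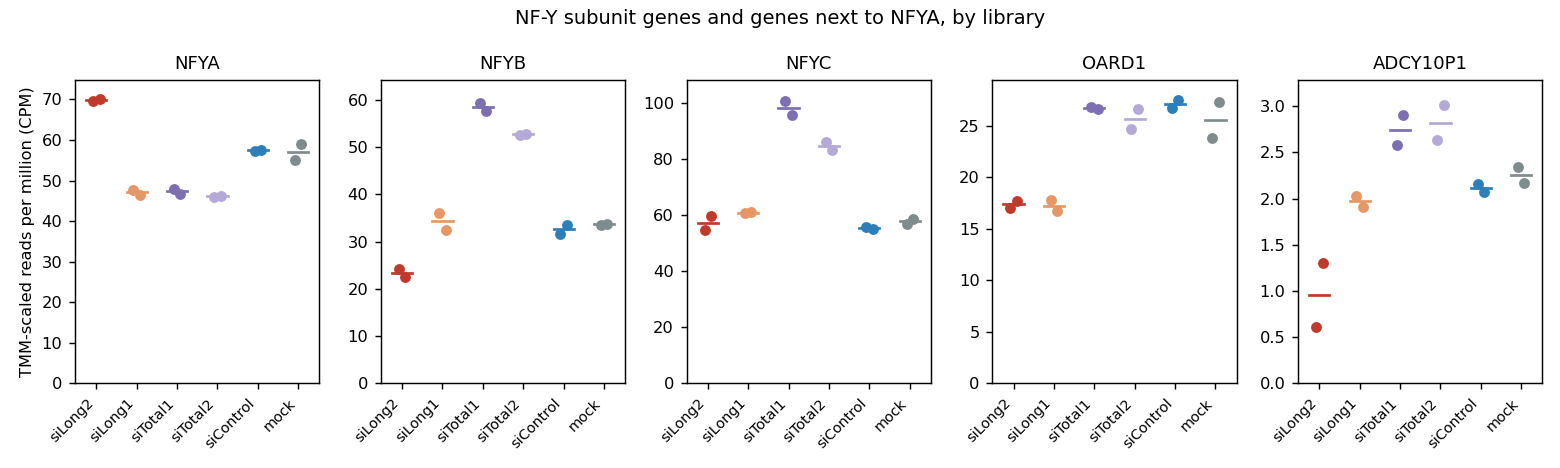
TMM-scaled CPM of NFYA, NFYB, NFYC, OARD1 and ADCY10P1 in each library (points) of the 6 groups, with the group mean as a bar. NFYA in siLong2 (69.7 and 70.1 CPM) lies above all other libraries, and NFYB in siLong2 (24.1 and 22.4 CPM) lies below them.

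The other NF-Y subunit genes did not move together. NFYB (chromosome 12, 104117077 to 104138289) was at 24.1 and 22.4 CPM in siLong2, 31.5 and 33.6 CPM in siControl, and 33.6 and 33.8 CPM in mock. It fell by 0.48 (log2) against siControl (SE 0.06, adjusted p = 3e-08) and by 0.53 against mock (SE 0.06, adjusted p = 2.6e-09), with no overlap between the groups. NFYC was at 54.7 and 59.9 CPM in siLong2, 56.0 and 55.0 CPM in siControl, and 57.1 and 58.9 CPM in mock, and no difference was called (adjusted p = 0.47 against siControl and 0.80 against mock).

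Genes on the flanks of NFYA also differed. OARD1, a deacylase gene that overlaps NFYA on the opposite strand, was at 17.0 and 17.7 CPM in siLong2, 17.8 and 16.7 CPM in siLong1, 26.7 and 27.5 CPM in siControl, and 23.8 and 27.3 CPM in mock. The siLong libraries lay below all control libraries, by -0.64 (log2) against siControl and -0.56 against mock for siLong2, and its difference from siLong1 was not called (adjusted p = 0.95). ADCY10P1, a pseudogene that starts downstream of NFYA on the same strand, was at 0.613 and 1.30 CPM in siLong2, 2.03 and 1.91 CPM in siLong1, 2.16 and 2.07 CPM in siControl, and 2.34 and 2.17 CPM in mock. It fell by 1.14 (log2) against siControl (adjusted p = 8.5e-05) and by 1.24 against mock (adjusted p = 1.7e-05), values that were -0.70 and -0.80 without siLong2 replicate 1. Whether reads were counted by strand is not stated, so NFYA and OARD1 reads from their overlap may have been mixed.

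Because the control groups differ from each other, a gene was counted as higher or lower in siLong2 when edgeR's quasi-likelihood test called it in the same direction against siControl and against mock (Benjamini-Hochberg adjusted p under 0.05 in each). Of the 17730 genes, siControl and mock differed in 7065 (39.8%). Against siControl, siLong2 differed in 9349 genes (52.7%), against mock in 8912 (50.3%), and against the mean of the control groups in 9540 (53.8%). Against the mean of the other 3 NFYA siRNAs it differed in 8986 (50.7%). Genes called in the same direction against both numbered 5960 (33.6%), with 2975 higher (16.8%) and 2985 lower (16.8%). They made up 63.8% of the calls against siControl and 66.9% of the calls against mock. Another 540 genes (3.05%) were called against both controls in opposite directions. When the test asked for a change beyond 1.2-fold against each control, 1224 genes were higher (6.9%) and 1236 lower (6.97%). The counts of list members given further on stand beside these shares, 16.8% each way for a call and about 6.9% each way beyond 1.2-fold.

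Large changes were fewer and leaned upward. At 2-fold or more against each control, 407 genes were higher (2.3%) and 166 were lower (0.936%). These were mostly genes of low level: the median control level was 0.357 CPM for the 407 and 1.32 CPM for the 166, against 14.1 CPM for all tested genes. With a minimum count of 50 in the filter, 186 were higher and 91 lower. In the direct test against siLong1, 284 of the 407 were higher in siLong2, 6 were lower and 117 were not called. Of the 166, 98 were lower in siLong2 than in siLong1, 3 were higher and 65 were not called. The whole-table background for that test was 9521 genes called (53.7%), with 4780 higher (27%) and 4741 lower (26.7%). The 407 and the 166 were chosen by the same siLong2 libraries that enter the direct test. A lean in the chosen direction therefore follows in part from the choice, and its excess over the background has no separate meaning here.

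**Figure D2:**
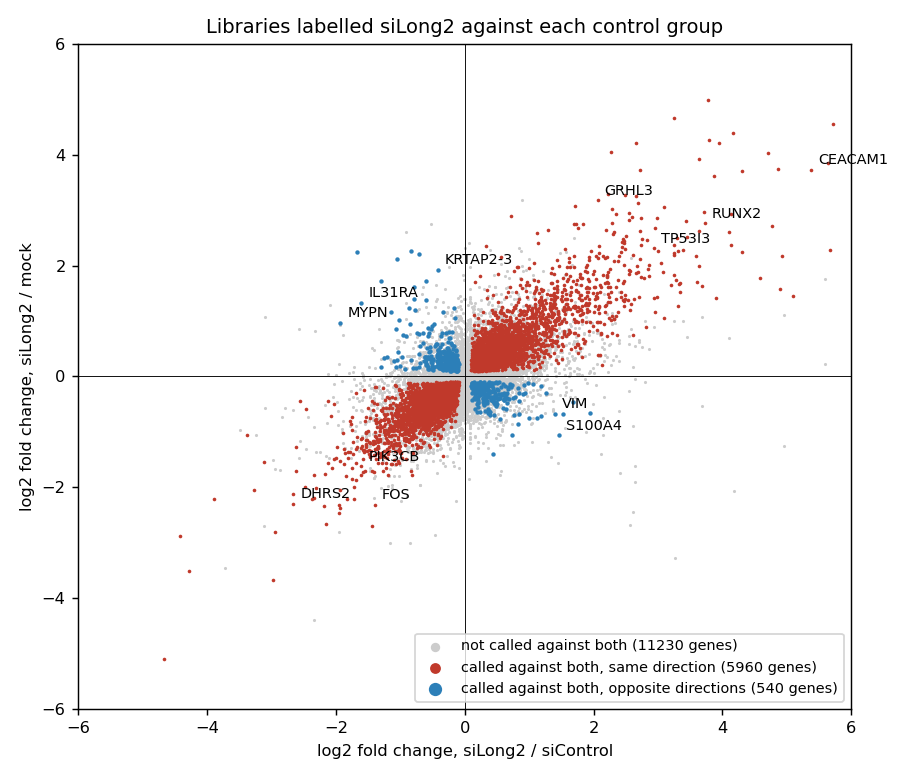
Log2 fold change of siLong2 over siControl (x axis) and over mock (y axis) for each tested gene, with 11 genes beyond the axis limits not drawn. Red points are the 5960 genes called against both in the same direction, and blue points the 540 genes called in opposite directions, such as S100A4 (1.46 against siControl and -1.07 against mock) and MYPN (-1.93 and 0.97).

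The genes that rose most included an epithelial adhesion gene, a cell death regulator and transcription factor genes, and several were close to the detection floor in the controls. CEACAM1 (chromosome 19, 42507304 to 42561234), an adhesion molecule of epithelial cells, was at 11.7 and 10.8 CPM in siLong2, 3.53 and 3.28 CPM in siLong1, 0.184 and 0.350 CPM in siControl (7 and 13 reads), and 0.674 and 1.04 CPM in mock. Its siLong2 libraries were the highest, siLong1 lay between, and no group overlapped another. It rose by 5.38 (log2) against siControl (SE 0.23, adjusted p = 1.1e-20) and by 3.73 against mock (SE 0.18, adjusted p = 4.2e-19). BCL2L15, a member of the BCL2 family of cell death regulators, was at 9.41 and 8.78 CPM in siLong2, 0.473 and 0.916 CPM in siControl, and 1.25 and 1.06 CPM in mock. RUNX2, the transcription factor gene of bone formation, was at 18.5 and 18.1 CPM in siLong2, 1.42 and 1.35 CPM in siControl, and 2.08 and 3.39 CPM in mock, rising by 3.72 and 2.77 (log2) against siControl and mock.

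SERPINB5 (chromosome 18, 63476761 to 63505085), which encodes the serpin maspin, combined a large rise with a high read number. It stood at 184 and 185 CPM in siLong2, 76.3 and 77.1 CPM in siLong1, 38.6 CPM in each siControl library, and 45.1 and 51.2 CPM in mock. The rise was 2.25 (log2) against siControl (SE 0.05, adjusted p = 4e-29) and 1.94 against mock (SE 0.05, adjusted p = 3.3e-27). GRHL3, a transcription factor gene of surface epithelia, was at 6.66 and 7.50 CPM in siLong2, 1.71 and 1.67 CPM in siControl, and 0.912 and 0.626 CPM in mock, and siLong1, at 2.00 and 1.46 CPM, overlapped siControl. ABCA12, a lipid transporter gene of the skin barrier, rose by 3.25 against siControl and 2.22 against mock, and FBLIM1, which encodes a filamin-binding protein, by 3.59 and 2.18. ZNF804A and the axonemal dynein gene DNAI3 were high in siLong2, while siLong1 lay within or below the range of the control libraries. ZNF804A was at 12.6 and 11.8 CPM in siLong2, 2.57 and 2.62 CPM in siLong1, 2.71 and 3.34 CPM in siControl, and 3.35 and 3.18 CPM in mock. The difference between siLong2 and siLong1 was 2.23 (log2, adjusted p = 2.7e-17) for ZNF804A and 1.84 (adjusted p = 1.9e-13) for DNAI3. Over the 15 genes of largest rise, the smaller of the 2 log2 changes ran from 1.86 for DNAI3 to 3.73 for CEACAM1.

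Among the genes that fell most were a linker histone gene, immediate early genes and signalling enzymes. DHRS2 (chromosome 14, 23630115 to 23645639), a short-chain dehydrogenase gene, was at 3.01 and 3.06 CPM in siLong2, 6.61 and 6.86 CPM in siLong1, 19.8 and 18.6 CPM in siControl, and 15.6 and 14.1 CPM in mock. It fell by 2.66 (log2) against siControl (SE 0.09, adjusted p = 2.3e-23) and by 2.30 against mock (SE 0.09, adjusted p = 5.1e-21). Its siLong1 libraries again lay between siLong2 and the controls.

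PIK3CB (chromosome 3, 138652699 to 138834938), which encodes a catalytic subunit of phosphoinositide 3-kinase, was low in siLong2 and not in siLong1. It was at 27.4 and 27.3 CPM in siLong2, 90.6 and 87.4 CPM in siLong1, 82.4 and 84.4 CPM in siControl, and 81.3 and 86.9 CPM in mock. It fell by 1.61 on the log2 scale against siControl (SE 0.05), by 1.62 against mock (SE 0.05) and by 1.70 against siLong1 (adjusted p = 3.8e-25). WSB2, which encodes a WD-repeat protein with a SOCS box, had the same order, with 47.5 and 48.7 CPM in siLong2, 125 and 122 CPM in siLong1, 126 and 127 CPM in siControl, and 115 and 123 CPM in mock. For both genes the siLong1 libraries lay within or above the range of the control libraries.

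The linker histone gene H1-10 was low in both siLong groups, at 25.8 and 29 CPM in siLong2, 38.6 and 36.8 CPM in siLong1, 104 and 89.6 CPM in siControl, and 76.7 and 75.9 CPM in mock. The immediate early genes EGR1 and FOS, transcription factor genes induced by growth factor signalling, were low in both as well. EGR1 was at 73.9 and 68.5 CPM in siLong2, 99.8 and 105 CPM in siLong1, 171 and 177 CPM in siControl, and 215 and 206 CPM in mock. It fell by 1.29 (log2, adjusted p = 1.2e-12) and FOS by 1.40 (adjusted p = 3.1e-04) against siControl, and by 1.56 and 2.32 against mock. Over the 15 genes of largest fall, the smaller log2 change ran from -2.30 for DHRS2 to -1.29 for EGR1 and CARNMT1, a carnosine methyltransferase gene.

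**Figure D3:**
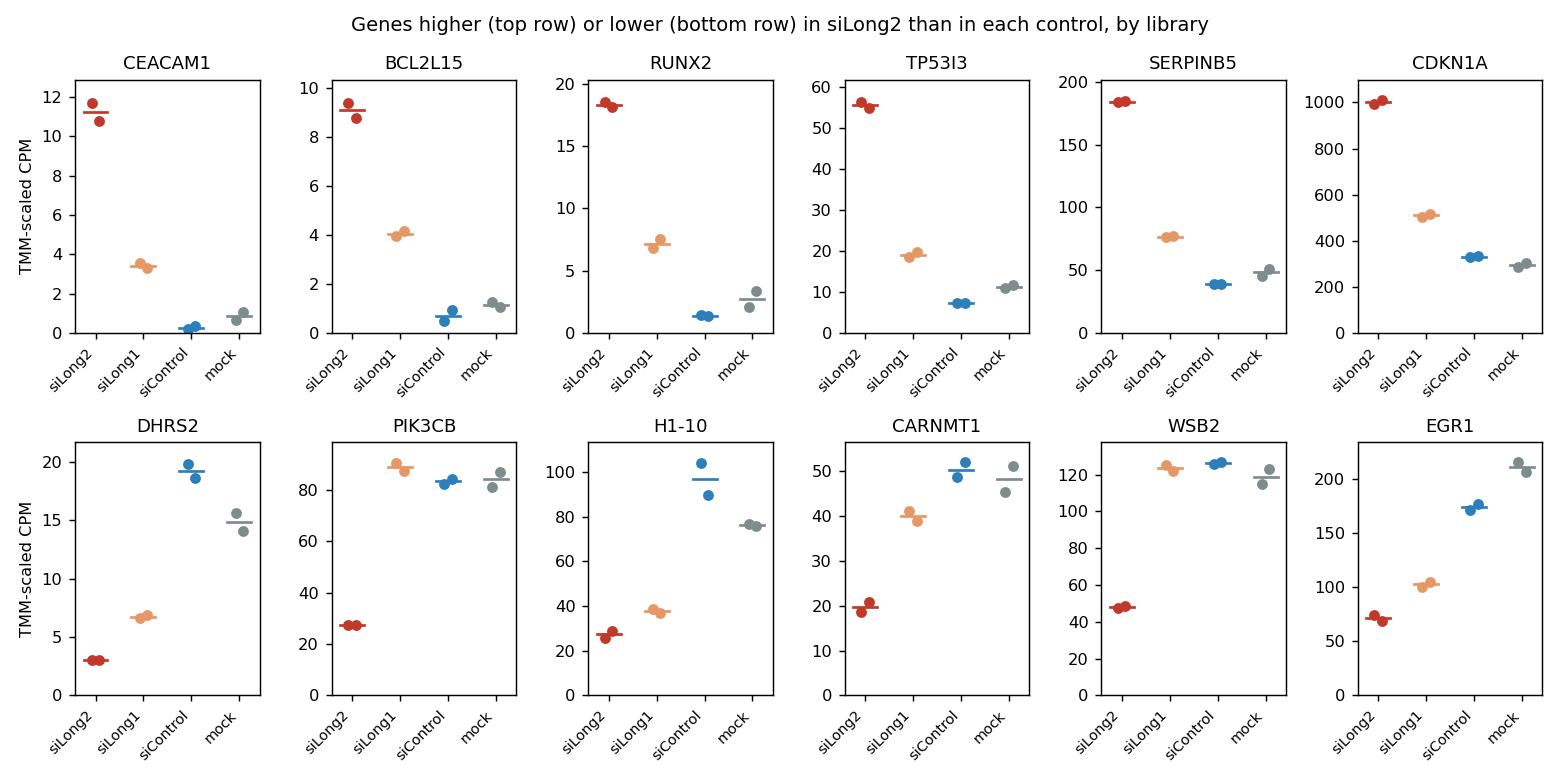
TMM-scaled CPM per library (points) with group means (bars) in siLong2, siLong1, siControl and mock for 6 genes that rose and 6 that fell against each control. In PIK3CB and WSB2 only siLong2 lies below the controls (PIK3CB 27.4 and 27.3 CPM in siLong2), while in DHRS2, H1-10, CARNMT1 and EGR1 siLong1 lies between siLong2 and the controls.

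Genes of G2 and mitosis fell almost without exception. Of 43 tested members, 42 were lower in siLong2 against each control and 0 were higher, where 16.8% of all tested genes were lower. The median log2 change was -0.49 against siControl and -0.63 against mock, beside -0.01 and -0.02 over all tested genes. CENPA, the centromeric histone H3 gene, was at 12.8 and 13.1 CPM in siLong2, 16.1 and 13.7 CPM in siLong1, 24.4 and 25.4 CPM in siControl, and 25.7 and 27.8 CPM in mock. It fell by 0.94 (log2, SE 0.08, adjusted p = 1.3e-12) against siControl and by 1.04 (SE 0.08, adjusted p = 5.9e-14) against mock. In the values that follow a gene name, the first is the log2 change against siControl and the second that against mock. The kinetochore genes SPC25 (-0.83 and -0.94) and CENPE (-0.77 against each) and the spindle kinesin gene KIF11 (-0.76 and -0.83) followed, and the siLong2 libraries lay below all 4 control libraries for each. The cyclin gene CCNB1 was at the shallow end, at 258 and 268 CPM in siLong2, 337 and 331 CPM in siControl, and 340 and 354 CPM in mock.

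Compared directly with siLong1, 30 of the 43 G2 and mitosis genes were lower in siLong2, 4 were higher and 9 were not called, with a median of -0.23. The background was 26.7% of all genes lower. SPC25 was at 19.2 and 19.4 CPM in siLong2 and 27.0 and 25.8 CPM in siLong1, a log2 difference of -0.45 (adjusted p = 2.4e-07). CCNB1 was among the exceptions, 0.10 higher in siLong2 (adjusted p = 0.044). NFYA was higher in siLong2 than in siLong1 by the same test.

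Promoters were searched for CCAAT on either strand, in RefSeq windows of 300 bases (250 before to 50 after the start, GRCh38.p14), with the first window listed for each gene. Of 36 G2 and mitosis genes with a promoter in the table, 27 (75.0%) held it, against 36.6% of the 10697 tested protein-coding genes with one and 35.7% of all promoters in the table. Replication genes held it in 18 of 35 (51.4%), and p53 targets, most of which were higher in siLong2, in 13 of 24 (54.2%). Among protein-coding genes lower in siLong2 the share was 40.3%, and among those higher 35.1%. Among those lower by at least 2-fold it was 37.7%, and among those higher by at least 2-fold 36.9%. Of the 4 G2 and mitosis genes named above for the largest falls, CENPE held no CCAAT in its window. For the other 3 the copy nearest the start follows, read along the gene's strand, with capitals on CCAAT or its reverse complement ATTGG. They lie at chr2:168890472-168890496 (SPC25, minus strand), chr10:92593067-92593091 (KIF11, plus) and chr2:26785916-26785940 (CENPA, plus).
SPC25: gcgctatcggCCAATcagaaggcca
KIF11: cagcgcagccATTGGtccggctact
CENPA: gcatactctcATTGGccctacctgc
A letter match is a description of the window, and NF-Y binding was not measured.

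Genes of DNA replication and the G1/S transition fell in 32 of 40 tested members, with 0 higher (18 lower beyond 1.2-fold) and medians of -0.39 against siControl and -0.51 against mock. RRM2, a subunit gene of ribonucleotide reductase, was at 318 and 314 CPM in siLong2, 388 and 370 CPM in siLong1, 678 and 669 CPM in siControl, and 593 and 604 CPM in mock. It fell by 1.09 (log2, SE 0.04) against siControl and by 0.92 (SE 0.04) against mock. The cell cycle transcription factor genes E2F1 (-0.91 against each) and E2F2 (-0.78 and -0.83) and the DNA polymerase alpha gene POLA1 (-0.80 and -1.11) also fell. DNA damage repair genes fell in 19 of 27 and rose in 0, with medians of -0.47 and -0.55. Members included the Fanconi anemia genes FANCG (-0.73 and -0.67) and FANCI (-0.64 and -0.63) and the recombination gene BRCA1 (-0.68 and -0.64).

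The repair genes were not lower in siLong2 than in siLong1 as a group: 8 of 27 were lower, 7 were higher and the median was 0.02. These counts were near the shares over all genes, 26.7% lower and 27% higher. BRCA1 was at 49.8 and 46.9 CPM in siLong2, 40.0 and 40.1 CPM in siLong1, 77.9 and 77.0 CPM in siControl, and 74.7 and 76.3 CPM in mock. It was therefore low in both siLong groups and lower in siLong1 (log2 difference 0.27, siLong2 over siLong1, adjusted p = 2.3e-05).

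**Figure D4:**
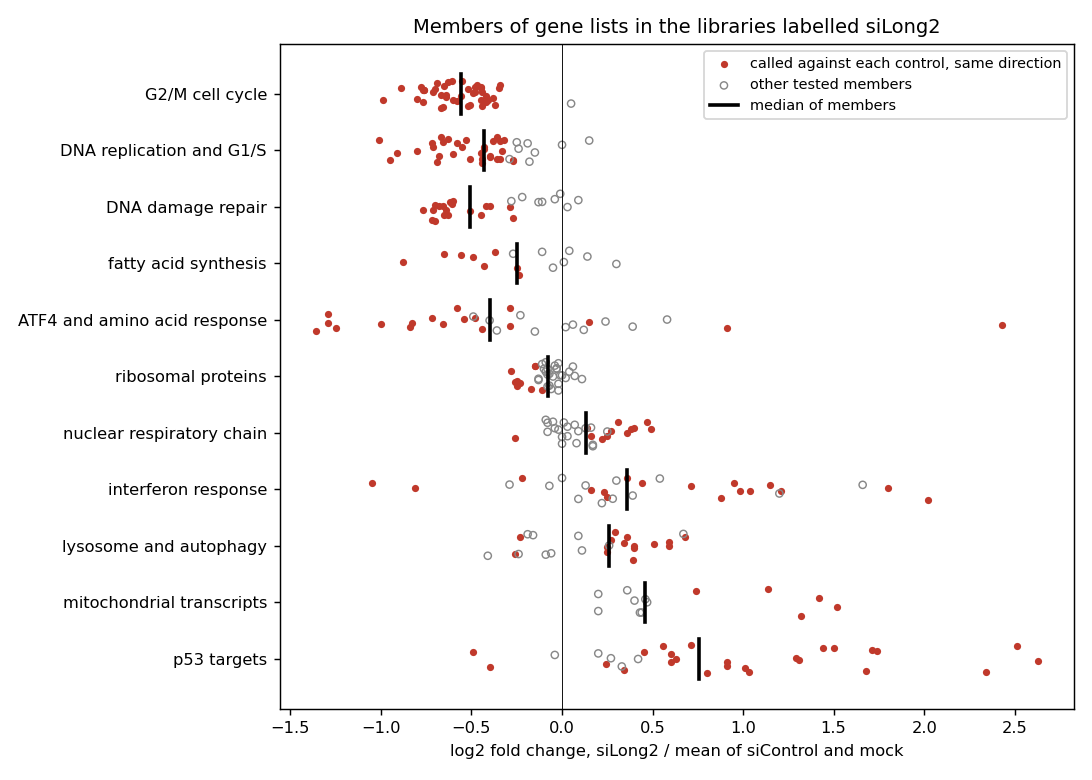
Log2 fold change of siLong2 over the mean of siControl and mock for the tested members (points) of 11 gene lists, with each list's median as a black bar. Red points were called against each control in the same direction: 42 of 43 G2/M genes fell, and 23 of 30 p53 targets rose.

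Targets of p53, the tumour suppressor that HCT116 cells retain, rose in 23 of 30 tested members and fell in 2 (21 and 0 beyond 1.2-fold), beside a background of 16.8% in each direction. The medians were 0.73 against siControl and 0.82 against mock. TP53I3, an oxidoreductase gene induced by p53, was at 56.3 and 54.9 CPM in siLong2, 18.4 and 19.7 CPM in siLong1, 7.28 and 7.19 CPM in siControl, and 10.8 and 11.6 CPM in mock. It rose by 2.94 (log2, SE 0.08, adjusted p = 5.7e-27) against siControl and by 2.31 (SE 0.07, adjusted p = 9.6e-25) against mock. CDKN1A, which encodes the cyclin-dependent kinase inhibitor p21, was at 995 and 1010 CPM in siLong2, 504 and 515 CPM in siLong1, 328 and 334 CPM in siControl, and 284 and 305 CPM in mock. In both genes siLong2 was highest, siLong1 lay between, and the groups did not overlap.

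TP53INP1, a stress-induced nuclear protein gene, rose by 3.29 (log2) against siControl and 1.74 against mock, and the antiproliferative gene BTG2 by 1.90 and 1.53. The members that fell were PHLDA3 (-0.62 and -0.36) and DDB2 (-0.29 and -0.52). MDM2, which encodes the ubiquitin ligase for p53, was called in opposite directions, with 231 and 230 CPM in siLong2, 277 and 296 CPM in siControl, and 193 and 202 CPM in mock. Directly against siLong1, 21 of 30 p53 targets were higher in siLong2 and 3 were lower, where 27% of all genes were higher. Among 25 apoptosis regulators 8 rose and 1 fell (0 fell beyond 1.2-fold). The risers included the BH3-only genes BIK (0.75 and 0.92) and BCL2L11 (0.85 and 0.62) and the apoptosome gene APAF1 (1.53 and 0.55).

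ATF4-dependent genes, which take up and make amino acids under shortage or endoplasmic reticulum stress, fell in 15 of 29 tested members, and 3 rose. SLC7A11, the cystine transporter gene, was at 34.7 and 32.2 CPM in siLong2, 41.7 and 42.9 CPM in siLong1, 86.6 and 86.2 CPM in siControl, and 71.3 and 75.6 CPM in mock. Asparagine synthetase ASNS fell by 1.02 (log2) against siControl and 0.98 against mock, and CHAC1, a glutathione-degrading enzyme gene, by 1.75 and 0.97. ASNS was higher in siLong2 than in siLong1 by 0.52 (adjusted p = 9.9e-12). Of the 29 genes, 16 were higher and 8 lower in siLong2 than in siLong1, beside 27% and 26.7% of all genes. DDIT4, a stress-induced inhibitor of mTOR signalling, was at 32.0 and 34.5 CPM in siLong2, 96.1 and 99.3 CPM in siLong1, 50.4 and 84.4 CPM in siControl, and 83.7 and 113 CPM in mock. Its siControl libraries were far apart, and the call against siControl (-1.02, adjusted p = 0.019) was lost without siControl replicate 2 (-0.60, adjusted p = 0.058) and without siLong2 replicate 1 (-0.97, adjusted p = 0.090) or 2 (-1.07, adjusted p = 0.069). The member that rose most was CBS, a cysteine synthesis gene (3.21 and 1.66). Whether its annotated near-identical copy affects counts made on build hg19 was not tested.

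Lipid and chaperone lists gave mixed counts. Of all tested genes, 16.8% were called each way, and beyond 1.2-fold 6.9% were higher and 6.97% lower. Beyond 1.2-fold the cholesterol, chaperone and heat shock counts were near those shares. Fatty acid synthesis genes fell in 8 of 15 (4 beyond 1.2-fold) with 0 higher, among them the desaturase genes FADS2 (-0.83 and -0.93) and SCD (-0.59 and -0.52) and the synthase gene FASN (-0.50 and -0.49). Cholesterol synthesis genes were split, with 7 higher (4 without siControl replicate 1 or siLong2 replicate 1, and 3 without siLong2 replicate 2) and 5 lower of 24, and 1 each way beyond 1.2-fold. Endoplasmic reticulum chaperone genes fell in 7 of 21 (2 beyond 1.2-fold) with 0 higher, led by HYOU1 at 198 and 205 CPM in siLong2, 393 and 394 CPM in siLong1, 354 and 343 CPM in siControl, and 353 and 348 CPM in mock. HYOU1 fell in siLong2 by 0.79 and 0.80 (log2), and siLong1 lay above all control libraries. Of 19 heat shock genes, 6 fell and 2 rose (1 without mock replicate 1 or siLong2 replicate 2), and 1 each way beyond 1.2-fold. Ribosomal protein genes fell in 9 of 35 with 0 higher, beside 16.8% of all genes each way. The number that fell was 4 without siLong2 replicate 1 and 0 beyond 1.2-fold, and 1 ribosomal protein gene was higher when only the compared groups entered the fit.

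Glycolysis genes fell in 9 of 21 (5 without siControl replicate 2) and rose in 2 (1 without mock replicate 1 or siLong2 replicate 2). Beyond 1.2-fold, 2 fell and 1 rose, near the 6.97% lower and 6.9% higher of all genes. ENO2, a neuronal-type enolase gene, was at 27.8 and 26.2 CPM in siLong2, 57.9 and 66.8 CPM in siControl, and 63.7 and 70.4 CPM in mock. SLC2A1, the basal glucose transporter gene, moved the other way, at 390 and 417 CPM in siLong2, 160 and 192 CPM in siControl, and 170 and 208 CPM in mock. The changes were -1.21 and -1.31 (log2) for ENO2 and 1.2 and 1.1 for SLC2A1, and the groups did not overlap in either gene.

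Interferon response genes rose in 14 of 29 members (8 beyond 1.2-fold) and fell in 3, with medians of 0.26 against siControl and 0.52 against mock. The RNA sensor gene IFIH1 was at 16.3 and 15.9 CPM in siLong2, 17.8 and 15.5 CPM in siLong1, 6.52 and 6.09 CPM in siControl, and 7.65 and 7.78 CPM in mock. IFIT1, whose product binds foreign RNA ends, rose by 1.09 (log2) and 0.87 and IFIT2 by 2.26 and 1.35, while IFI35 fell by 1.16 and 0.93. In IFIH1 and IFI35 the difference between siLong2 and siLong1 was not called (adjusted p = 0.67 and 0.34). Of the 29 interferon response genes, 13 were higher and 2 lower in siLong2 than in siLong1, with a median of 0.19. Over all genes these shares were 27% and 26.7%. Of 15 genes of MHC class I presentation, 4 rose and 2 fell (0 fell without either mock or either siLong2 replicate, and 1 without siControl replicate 1, with RLE scaling, with no filter beyond 1 read or with DESeq2). Beyond 1.2-fold, 2 rose and 0 fell. Those that rose included the peptide transporter gene TAP1 (1.26 and 1.07) and B2M (0.61 and 0.50), the light chain gene.

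Lysosome and autophagy genes rose in 13 of 25 and fell in 2, beside 16.8% of all genes each way, and beyond 1.2-fold 3 rose and 0 fell. MAP1LC3B, the autophagosome protein LC3B, was at 172 and 175 CPM in siLong2, 79.9 and 82.4 CPM in siLong1, 131 CPM in each siControl library, and 87.0 and 92.2 CPM in mock. It rose by 0.41 (log2) against siControl and 0.95 against mock, and siLong2 was the highest of these groups while siLong1 was the lowest. SQSTM1, an autophagy receptor gene, fell by 0.28 and 0.17.

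Mitochondrially encoded transcripts rose in 5 of 13 members with 0 lower, beside the higher mitochondrial read share given above. MT-ND3, a complex I subunit gene, was at 1690 and 1680 CPM in siLong2, 760 and 778 CPM in siLong1, 544 and 646 CPM in siControl, and 612 and 556 CPM in mock. It rose by 1.50 (log2, SE 0.14, adjusted p = 1.2e-04) against siControl and by 1.53 (SE 0.14, adjusted p = 1.2e-04) against mock. MT-ND1 (1.32 against each) and MT-ND2 (1.38 and 1.46), of the same complex, also rose. MT-CO1, a complex IV subunit gene, was at 8620 and 8700 CPM in siLong2, 6620 and 8850 CPM in siControl, and 7920 and 6850 CPM in mock, and was not called. The control libraries differed widely among themselves in these transcripts, and the number that rose was 9 without siControl replicate 2 or with DESeq2, and 3 when only the compared groups entered the fit. Of 31 nuclear-encoded respiratory chain genes, 11 rose and 1 fell, beside 16.8% of all genes each way, and beyond 1.2-fold 1 rose and 0 fell. The changes were smaller, such as the complex I subunit gene NDUFS1 (0.58 and 0.39).

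Epithelial and stem cell genes moved in both directions. Of 29 epithelial junction and identity genes, 10 rose and 7 fell (5 and 2 beyond 1.2-fold). The simple-epithelium keratin KRT8 was at 2470 and 2580 CPM in siLong2, 2690 and 2700 CPM in siLong1, 1470 and 1490 CPM in siControl, and 1630 and 1690 CPM in mock, and its partner KRT18 rose by 0.63 (log2) and 0.58. KRT7 fell, at 9.44 and 9.60 CPM in siLong2, 30.3 and 31.9 CPM in siLong1, 40.9 and 37.3 CPM in siControl, and 13.3 and 13.7 CPM in mock. Its control groups were themselves far apart, so the fall was 2.04 (log2) against siControl and 0.50 against mock.

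Of 19 Wnt and intestinal stem cell genes, 10 rose and 4 fell (6 and 2 beyond 1.2-fold). SOX9, a progenitor transcription factor gene, was at 165 and 170 CPM in siLong2, 133 and 142 CPM in siLong1, 44.0 and 49.1 CPM in siControl, and 106 and 114 CPM in mock. SOX4 (2.37 and 0.74) and RNF43 (1.75 and 0.56), the ubiquitin ligase gene that removes Wnt receptors, had the same pattern, so that most of their distance from siControl was also present in mock. NOTUM, a secreted Wnt inhibitor gene, fell by 0.73 and 1.25. Of 16 YAP target genes 5 rose (3 beyond 1.2-fold) and 4 fell, with NT5E, the ecto-nucleotidase CD73, at 319 and 327 CPM in siLong2, 199 CPM in each siLong1 library, 100 and 111 CPM in siControl, and 68.7 and 79.1 CPM in mock. YAP1 itself rose by 0.96 and 0.65, and the receptor kinase gene AXL fell by 1.32 and 0.98.

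For some genes the direction depended on the control group. S100A4, a calcium-binding protein gene, was at 51.2 and 52.7 CPM in siLong2, 17.6 and 20.2 CPM in siControl, and 102 and 116 CPM in mock. MYPN, a sarcomere protein gene, was at 1.70 and 2.29 CPM in siLong2, 7.75 and 7.49 CPM in siControl, and 0.833 and 1.23 CPM in mock. In both, siLong2 lay between the control groups. The intermediate filament gene VIM was at 1.40 (log2) against siControl and -0.67 against mock, where the call was lost without mock replicate 1 (-0.30, adjusted p = 0.15). The cytokine receptor gene IL31RA was at -1.61 against siControl and 1.33 against mock.

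The direct test against siLong1 singled out genes that held against both controls and still differed most between the siLong siRNAs. NLRP4, an intracellular receptor gene of the NLR family, was at 4.40 and 4.13 CPM in siLong2, 0.621 and 0.450 CPM in siLong1, 1.02 and 0.808 CPM in siControl, and 2.50 and 2.65 CPM in mock. PAQR8, a membrane progestin receptor gene, was at 8.27 and 7.98 CPM in siLong2, 1.10 and 1.32 CPM in siLong1, 3.34 and 3.31 CPM in siControl, and 6.03 and 6.33 CPM in mock. Both were above every control library in siLong2 and below every control library in siLong1, with log2 differences of 2.99 (SE 0.21) and 2.74 (SE 0.15) between them.

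In the other direction, SCG2, a secretogranin gene, was at 6.01 and 4.98 CPM in siLong2, 46.0 and 48.7 CPM in siLong1, 7.17 and 7.54 CPM in siControl, and 11.2 and 11.7 CPM in mock. TIMP2, a metalloproteinase inhibitor gene, was at 57.6 and 57.8 CPM in siLong2, 255 and 273 CPM in siLong1, 129 and 131 CPM in siControl, and 137 and 143 CPM in mock. The siLong2 libraries were the lowest and the siLong1 libraries the highest in each, with differences of -3.10 and -2.19 (log2, adjusted p = 1.7e-26 and 2.8e-30). Against single controls some of these changes were small: PAQR8 against mock (0.40) and SCG2 against siControl (-0.42) were not called beyond 1.2-fold. ELF3, an epithelial transcription factor gene, was at 23.6 and 24.3 CPM in siLong2, 99.5 and 102 CPM in siLong1, 40.7 and 49.8 CPM in siControl, and 39.6 and 47.6 CPM in mock.

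**Figure D5:**
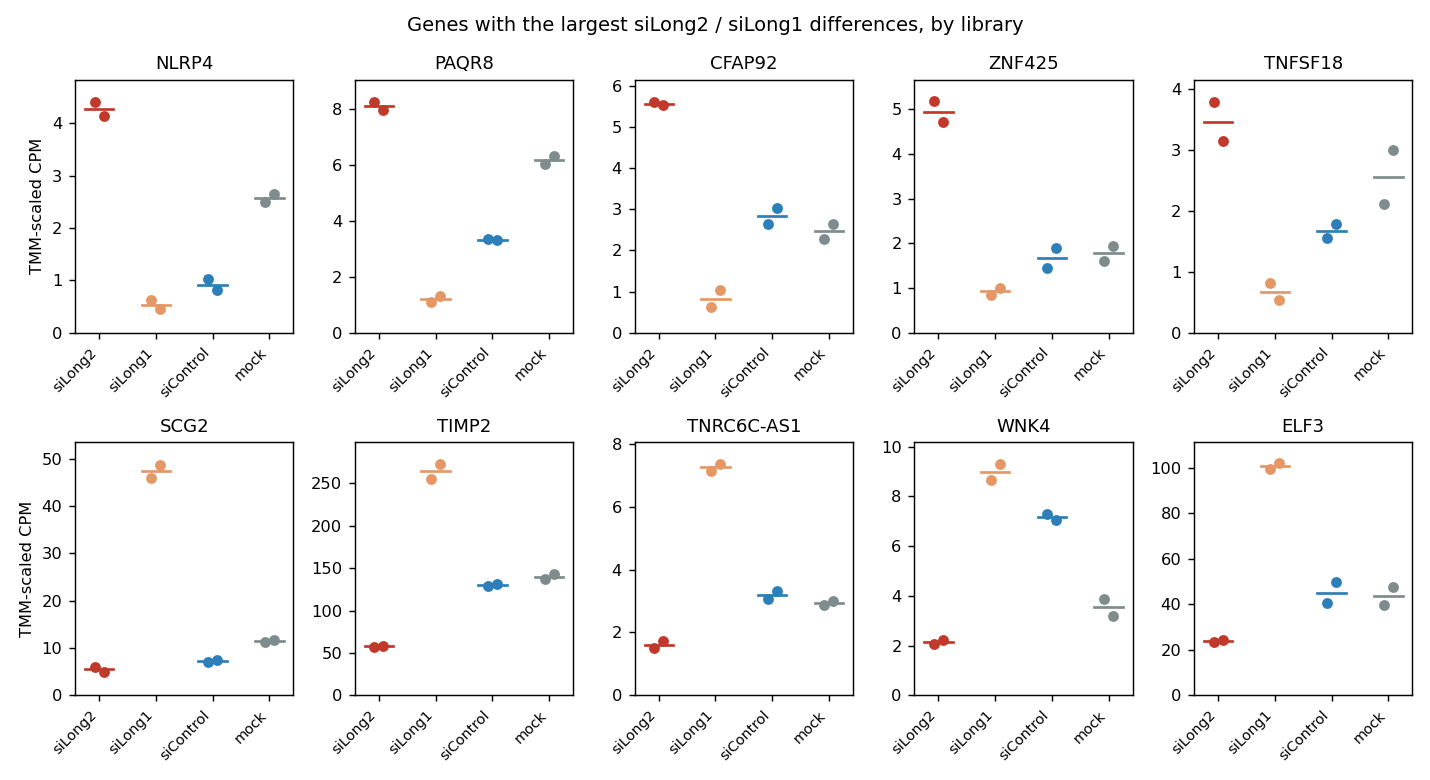
TMM-scaled CPM per library (points) and group means (bars) in siLong2, siLong1, siControl and mock for the 5 genes with the largest positive (top row) and negative (bottom row) log2 differences between siLong2 and siLong1 among genes called against each control. For TIMP2, siLong2 (57.6 and 57.8 CPM) lies below and siLong1 (255 and 273 CPM) above the controls.

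The 7-base word that pairs with each siLong seed was counted in the longest annotated 3′ untranslated region (at least 50 bases, GENCODE 29) of tested protein-coding genes, on the transcript strand only. The word of the second listed siRNA, TAGCATC, was present in 7.22% of 13068 genes. It was present in 10.5% of 2670 genes lower in siLong2 against each control and in 5.67% of 2680 genes higher. Among genes lower by at least 2-fold it was in 12 of 92 (13.0%). Their median untranslated region was 733 bases, against 1320 bases overall. Among those also lower than siLong1 it was in 10 of 59 (16.9%), and among genes higher by at least 2-fold in 12 of 265 (4.53%).

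The word of the first listed siRNA, TAGGGTA, was in 5.97% of all these genes, in 5.96% of those lower in siLong2 and in 1 of the 92 lower by at least 2-fold (1.09%). With the shortest annotated region of each gene instead, TAGCATC was in 8.70% of the 92 and in 3.05% of all. Among the 15 genes of largest fall, 5 held TAGCATC: PIK3CB, WSB2, CARNMT1, FOXL1 and BPNT2. PIK3CB and WSB2 were low in siLong2 and not in siLong1, while for CARNMT1 siLong1 lay between siLong2 and the controls. Sites in 4 of the 5 genes are shown, with capitals on the word.
PIK3CB: atttccatgaTAGCATCattcc
WSB2: ggccatttatTAGCATCatatt
CARNMT1: ttaaatttaaTAGCATCacagg
FOXL1: ggagtcgtgtTAGCATCtcagg
The sites share between 8 and 9 bases in a row with the siRNA sense strand. CDH1 held a longer run, of 11 bases. Its siLong2 libraries (79.8 and 82.5 CPM) lay within the range of mock (76.7 and 84.0 CPM) and below siControl (94.8 and 99.7 CPM). DHRS2, which also fell, held no copy of the word, and CFAP92, which was higher in siLong2 than in siLong1, held 1. NDUFS1, which rose against each control, held 1 as well. AXL held 2 copies and was lower in siLong2 than in siLong1 by 1.75 (log2, adjusted p = 3.9e-22). Among the cell division and p53 lists the word was in 3 of 43 G2 and mitosis genes, in 0 of 40 replication genes and in 2 of 30 p53 targets. Whether the word plays a part in any of these differences was not tested.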

How the data were processed

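Per the labels, polyadenylated RNA of 12 HCT116 cultures was made into stranded libraries. The submitters' processing notes name STAR 2.4.0f1, the counter featureCounts and build hg19. Annotation release, strand setting and read filters are not given in the sources that were used here. The authors deposited raw counts of reads per Ensembl gene, and 0 columns belonged to other samples.

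The filter was filterByExpr with a minimum count of 10 and a minimum total of 15; TMM-scaled counts were then modelled with edgeR 4.0.16 (R 4.3.3, limma 3.58.1), using a robust quasi-likelihood model of the 6 groups (6 residual degrees of freedom; common BCV, the biological coefficient of variation, 3.57%). Benjamini-Hochberg adjustment of the F-test p-values ran over 17730 genes, with a call at an adjusted p under 0.05. The mean of the controls weights siControl and mock equally. P-values set a difference against the spread between duplicate libraries, estimated over all 6 groups together. Log2 fold changes are siLong2 over the named group. Where several values follow a gene name, the first is against siControl and the second against mock.

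Counts were simulated for siLong2 against both controls (16909 genes), with 50 genes altered at each size of change. A call against each control was made for 50% of the 1.2-fold set and 80% of the 1.5-fold set. For the 2-fold and 4-fold sets the shares were 94% and 100%. Of 164 calls in the simulation, 2 were false. Far more genes differed in the data, with 9349 called in siLong2 against siControl and 7065 between the controls. The simulation therefore gives no share of false calls for the 5960 genes called in the same direction. In all 6 groups the duplicates differed beyond counting noise, with chi-square values per degree of freedom of 1.83 to 7.34. Samples with the same replicate number showed little shared deviation (correlations -0.085 to 0.099). The main fit used no pairing by number, though such small correlations cannot exclude one.

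The compared groups and the 33 gene lists were chosen with earlier results of these data known. Named genes had an average log2 CPM above 1 and were the 15 largest changes each way by the smaller of the 2 log2 changes, up to 4 members a list, the 5 largest differences each way from siLong1, up to 4 each way called in opposite directions, the NF-Y subunits, OARD1 and ADCY10P1. Other list members are named with their values. A few genes that this rule names are not reported here. Symbols were found for 52181 identifiers, and GENCODE 29 names for another 345; positions are on GRCh38, not hg19. Genes with near-identical copies, such as mitochondrial and histone genes, have uncertain counts. Alternatives were DESeq2 1.42.0, RLE scaling, other filters, a 1.2-fold threshold test, pooled controls, the compared groups alone, a replicate block and leaving out each library; the shortest untranslated region was added after seeing the data.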

Additional observations from a re-analysis of the deposited data

Results flagged for a closer look

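Of the 150 genes chosen to be named, those are given here for which siLong1 and siLong2 were each called against both controls, in opposite directions, and the direct test between them was called too (edgeR quasi-likelihood, adjusted p under 0.05). Values are log2 differences of siLong2 over siLong1. Genes higher in siLong2 were NLRP4 (2.99), PAQR8 (2.74), CFAP92 (2.73), the zinc finger gene ZNF425 (2.41), the TNF family ligand gene TNFSF18 (2.37), MAP1LC3B (1.10) and NFYA (0.57). The siLong2 call of TNFSF18 against mock (0.45) was lost without mock replicate 1 (0.22, adjusted p = 0.42), without siLong2 replicate 1 (0.31, adjusted p = 0.28) and with DESeq2 (0.46, adjusted p = 0.12). CFAP92 stood at 5.60 and 5.52 CPM in siLong2, 0.621 and 1.03 CPM in siLong1, 2.65 and 3.02 CPM in siControl, and 2.28 and 2.65 CPM in mock.

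Genes lower in siLong2 were SCG2 (-3.10), TIMP2 (-2.19), TNRC6C-AS1 (-2.17), the kidney kinase gene WNK4 (-2.07), ELF3 (-2.07), the receptor kinase gene AXL (-1.75), the secreted glycoprotein gene FSTL1 (-1.40), HYOU1 (-0.97), the NF-kB subunit gene NFKB1 (-0.61) and the ribosomal protein gene RPS2 (-0.39). RPS2 in siLong2 was not called against either control beyond 1.2-fold. TNRC6C-AS1 is antisense to TNRC6C, and since the strand setting of the counts is not stated its reads may include those of its partner.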

How the results depend on the processing

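The count of genes called in the same direction against each control was 5960, and every alternative but one kept it within 1.5 times. It was 4994 with DESeq2, 5911 with RLE scaling, 5719 with no filter beyond 1 read, 5747 with a minimum count of 50, 6273 with the compared groups alone and 4858 to 5511 when one library was left out. Pooling the controls as 1 group called 6413 genes, against 9540 for their mean. Asking for a change beyond 1.2-fold lowered all counts by the test's construction: 2460 genes held (1224 higher and 1236 lower), with 4377 called against the mean of the controls, 4800 against siControl, 4132 against mock, 4883 against siLong1, 3496 against the mean of the other 3 NFYA siRNAs, and 2300 in siControl against mock. The main fit did not pair samples by replicate number. With a replicate block the counts were 5984 holding, 9563 against the mean of the controls, 9385 against siControl and 8939 against mock. They were 7098 in siControl against mock, 9550 against siLong1 and 9044 against the other siRNAs. At the 1.2-fold threshold 36 G2/M and 15 repair genes fell, against 42 and 19 in the main test, and list counts that moved by over 1.5 times stand beside each list. With one library left out, the NFYC log2 change ran from -0.02 (without siLong2 replicate 2) to 0.11 against siControl and from -0.09 to 0.04 against mock (0.00 without mock replicate 2, 0.04 without siLong2 replicate 1), and the OARD1 difference from siLong1 from -0.03 (without siLong1 replicate 2) to 0.06 (-0.01 without siLong2 replicate 2), so their signs turned in uncalled differences; the cause was not tested. With 100 bases before the start in place of the full promoter window, CCAAT was in 21.7% of all tested protein-coding genes, 25.8% of those lower and 20.5% of those higher. Depth limits the genes of large rise most, since most of them lay under 1 CPM in the controls.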

Other observations

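Histone genes moved apart in the libraries labelled siLong2. Of 10 tested replication-dependent histone genes, whose transcripts mostly lack the poly(A) tail that the libraries select, 5 were higher and 3 lower against each control. H2BC5, a histone H2B gene, was at 11.6 and 11.5 CPM in siLong2, 5.48 and 5.85 CPM in siLong1, 2.55 and 2.91 CPM in siControl, and 2.22 and 2.74 CPM in mock, a rise of 2.08 (log2) against siControl and 2.22 against mock. The siLong2 libraries were the highest, and siLong1 lay between them and the controls. The list counts depended on single libraries: 3 rose without siControl replicate 1 and 2 without siLong2 replicate 1, and 0 fell without siLong2 replicate 1 and 1 without siLong2 replicate 2. With DESeq2 2 rose and 1 fell, 1 fell with a minimum count of 50 or with no filter beyond 1 read, and beyond 1.2-fold 3 rose and 0 fell.

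Other lists had counts in both directions, several at or under the 16.8% of all tested genes called each way. Among 20 genes of ERK output and feedback, 5 rose (2 beyond 1.2-fold) and 6 fell: the phosphatase gene DUSP6 was at 143 and 145 CPM in siLong2, 64.6 and 62.7 CPM in siLong1, 60.8 and 62.8 CPM in siControl, and 103 and 113 CPM in mock, while the feedback inhibitor gene SPRY4 fell by 0.83 (log2) against siControl and 0.60 against mock. Of 25 mesenchymal and matrix genes 5 rose and 2 fell (1 without siLong2 replicate 2 or beyond 1.2-fold), and of 8 tested intestinal differentiation genes 3 rose and 1 fell (0 beyond 1.2-fold). NRF2 antioxidant genes rose in 3 of 23 (1 without siLong2 replicate 2) and fell in 4, near the 16.8% of all genes each way, and beyond 1.2-fold 1 rose and 1 fell. Inflammatory response genes rose in 1 of 15 and fell in 1 (2 without siLong2 replicate 2), under that share. Of 13 genes of the RNA interference machinery 2 rose (1 without either siLong2 replicate, either siControl replicate or mock replicate 1) and 2 fell, near that share too, and beyond 1.2-fold 0 rose and 1 fell. Among those that fell was AGO1 at 88.8 and 88.9 CPM in siLong2, 77.3 and 76.5 CPM in siLong1, 124 and 130 CPM in siControl, and 117 and 118 CPM in mock. AGO2, the Argonaute that cleaves siRNA targets, was not called against either control (0.02 and -0.09).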
